A study of Mus musculus with 12 samples.

Results

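The microRNAs described here are 9 that are best known from epithelial cells: the 5 members of the miR-200 family (miR-200a, miR-200b, miR-200c, miR-141 and miR-429) together with miR-375, miR-203, miR-31 and miR-135b. They were chosen by name, as every assay whose name, stripped of its species prefix and assay number, is one of these 9. That gave 11 assays of 762 on the array, because miR-200b and miR-200c each have 2, and 9 names of 690. Assays of the opposite hairpin arm, whose names end in #, were kept apart. All 11 assays entered the tests.

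The study asked which lung microRNAs respond to dietary flaxseed and to radiation. Lung RNA came from 12 C57BL/6 mice in 4 groups of 3 and was measured by quantitative PCR on TaqMan OpenArray plates, where every assay is a separate nanolitre reaction. Mice 2, 4 and 5 ate the control diet and were not irradiated, and mice 7, 8 and 9 ate it and received 13.5 Gy. Mice 11, 12 and 13 ate a diet containing 10% flaxseed for 21 days without radiation, and mice 15, 17 and 18 ate it and received 13.5 Gy. Lungs of irradiated mice were taken 48 h after exposure. The sources used here do not say how long the control diet was fed or whether mice shared a litter or cage. No group carries an engineered allele. The limma p values, described below, set differences between groups against the spread between mice within groups.

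The miR-200 family holds epithelial cells in their state by repressing ZEB1 and ZEB2, transcription factors that silence E-cadherin, and ZEB1 and ZEB2 in turn repress the genes of the family. The family falls when epithelial cells turn mesenchymal, a step studied in lung injury, fibrosis and cancer. miR-375 is abundant in endocrine and mucosal epithelial cells, miR-203 restrains the proliferation of keratinocytes through p63, and miR-31 and miR-135b are induced in several inflamed or transformed epithelia. In whole lung tissue, fewer cells of a type and less RNA per cell cannot be told apart.

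The mature sequences, from RefSeq on GRCm38.p6, are shown because the seed, bases 2 to 8 from the 5′ end and written here in capitals, sorts the family by likely targets. An entry was found for 7 of the 9 microRNAs; miR-375 and miR-135b are named only. The 5 family members carry 2 seeds that differ at position 4 of the microRNA.
miR-200a: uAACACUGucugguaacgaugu
miR-141: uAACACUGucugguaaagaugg
miR-200b: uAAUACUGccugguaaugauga
miR-200c: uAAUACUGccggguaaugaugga
miR-429: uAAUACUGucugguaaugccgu
miR-203: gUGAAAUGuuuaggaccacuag
miR-31: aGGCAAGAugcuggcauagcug

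miR-200a and miR-141 share the seed AACACUG and differ at 2 of 22 positions (C17A and U22G, read from miR-200a to miR-141). miR-200b, miR-200c and miR-429 share the seed AAUACUG, and miR-200b and miR-200c also differ at 2 of the 22 positions compared (U11G and A22G). Seed and gene location cut the family differently. The hairpins of miR-429, miR-200a and miR-200b lie together on the minus strand at chr4:156053905-156055750, a stretch of 1846 bases inside the annotated long noncoding RNA gene Gm13648. Those of miR-141 and miR-200c lie 477 bases end to end on the minus strand at chr6:124717914-124718390, with no other gene annotated over them. miR-203 lies on the plus strand at chr12:112130880-112130955, where another microRNA gene, Gm51289, is also annotated. miR-31 lies on the minus strand at chr4:88910557-88910662, inside the long noncoding RNA gene Gm49890.

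Values are levels on the log2 scale. The authors deposited relative threshold cycles (Crt), which fall as template rises. A level is the mean Crt of the 260 microRNA assays detected in all 12 mice minus the assay's own Crt in the same mouse, so a level of 0 is the average of those assays and a higher level is more RNA. A difference of 1 is a doubling if the template doubled in each cycle. The sources used here give no assay efficiencies, so levels are compared between mice and not between assays. An assay was called different at an adjusted p under 0.05 from a limma fit of all 296 tested assays, with Benjamini-Hochberg adjustment over the 296, and differences are given ± the standard error.

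The mice were not alike beyond their groups. The 3 unirradiated flaxseed mice had 281 to 297 detected microRNA assays against 307 to 312 in the other 9 mice, and mouse 13 had the highest mean Crt, 21.2, against 19.4 to 20.4 in the others. In mouse 11 the mean Crt of primer pool B exceeded that of pool A by 1.78 cycles, against 2.37 to 2.81 elsewhere. The deposited values also split the mice by their decimals: 40% to 49.7% of the microRNA Crt values of the unirradiated control mice and of the mice given both treatments have a 4th decimal, and 0% in the other 6 mice. Each comparison of a single treatment crosses this split, and the comparisons pooled over the other treatment are balanced on it. The interaction of diet with radiation is the same contrast as the split, so these cannot be told apart; the part of the split in the other results was not tested.

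Among the members, miR-375, miR-135b and, by 1 of its 2 assays, miR-200c were called higher with flaxseed when both radiation states were pooled. The median member differed little from the median assay. By radiation state, miR-375 was called higher only in unirradiated mice, miR-200c only in irradiated mice and miR-135b in neither. Pooled over both radiation states, 3 of 11 member assays were called higher and 0 lower, against 10.5% of all tested assays called in either direction, and the median member difference was 0.01 against 0.05 over all 296 assays. In unirradiated mice miR-375 was called higher and miR-429 lower, which is 2 of 11 against 12.2% of all assays, and the medians were equal at 0.22. In irradiated mice only miR-200c by assay 000505B was called, 1 of 11 against 5.07%, with medians of 0.22 for members and 0.01 for all assays.

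**Figure D1:**
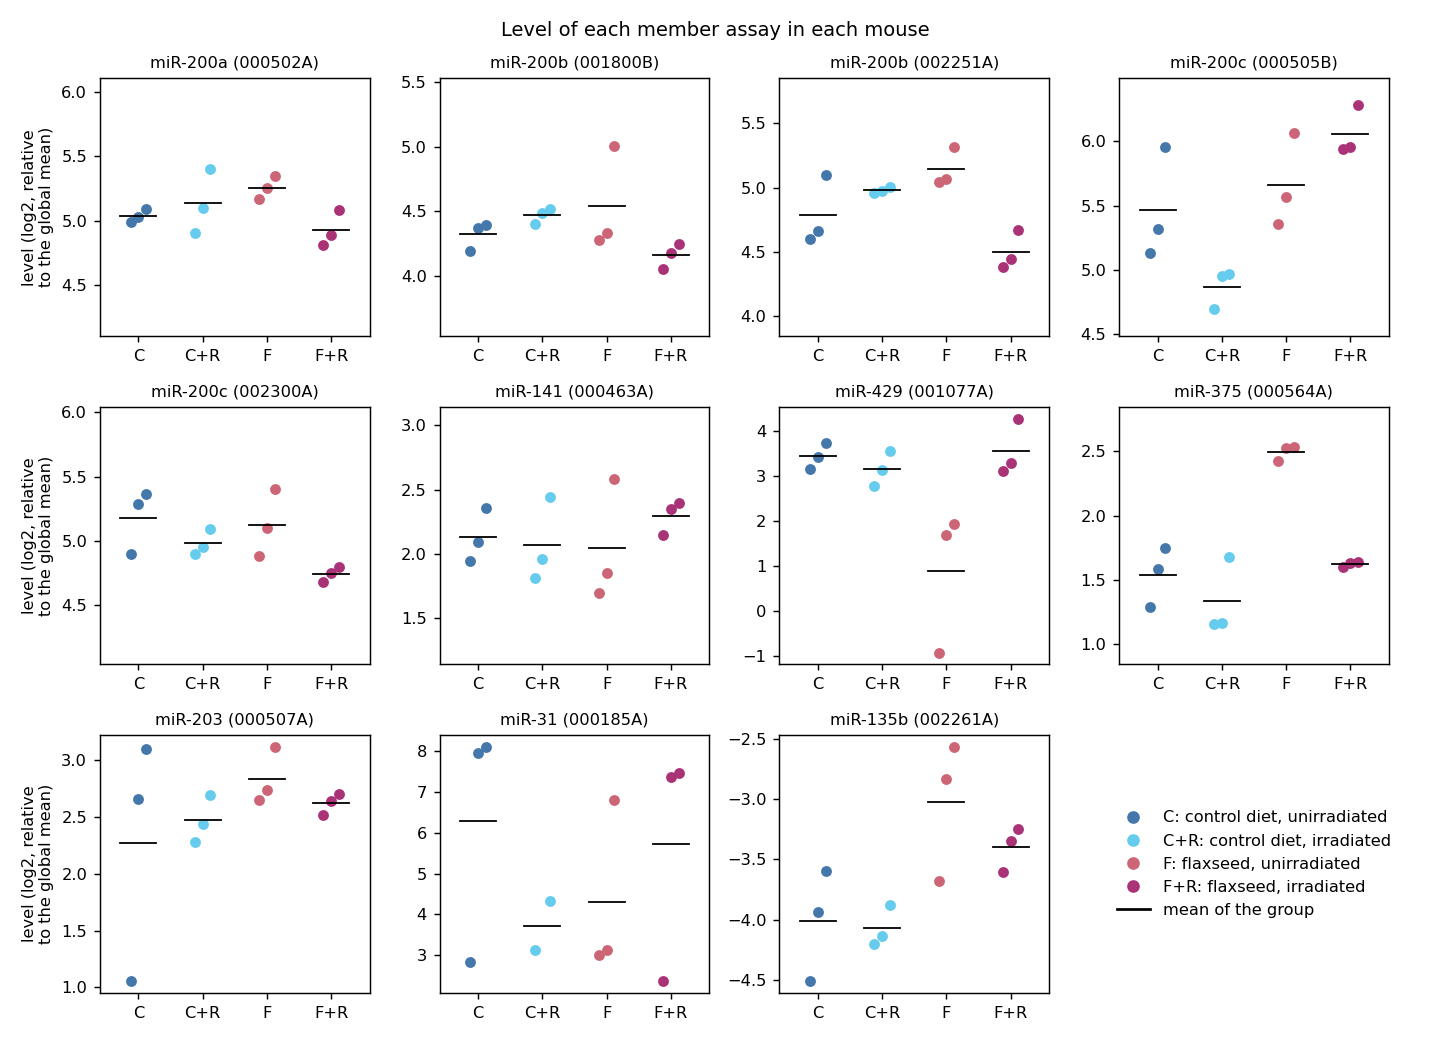
Level of each member assay in each mouse (log2, relative to the mean of 260 assays in that mouse), with 1 panel per assay and its number in parentheses; points are mice, black bars are group means, and the vertical scales differ between panels. miR-375 is highest and miR-429 lowest in the unirradiated flaxseed group without overlap with any other group, and miR-31 spans up to 5.28 within a group.

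Of the chromosome 4 cluster, miR-429 stood apart from its neighbours. Its level was 3.73, 3.16 and 3.43 in mice 2, 4 and 5, 2.77, 3.14 and 3.55 in mice 7, 8 and 9, -0.93, 1.95 and 1.68 in mice 11, 12 and 13, and 3.11, 4.28 and 3.29 in mice 15, 17 and 18. The unirradiated flaxseed mice were lower than every other mouse, and mouse 11 was the lowest by far. The other 3 groups overlapped one another. Flaxseed against control diet in unirradiated mice was -2.54 ± 0.65 (limma adjusted p = 0.0277), a 5.81-fold lower level, and within the flaxseed diet irradiated mice were higher by 2.66 ± 0.65 (limma adjusted p = 0.0247). Without mouse 11 these differences shrank to -1.62 and 1.75 and both stayed called (limma adjusted p = 0.0201 and 0.0142). The first call was lost when mouse 2, 4 or 5 was left out (limma adjusted p from 0.0635 to 0.0695). The second was lost when mouse 15, 17 or 18 was left out (limma adjusted p from 0.0517 to 0.0976). Without mice 11 and 13 together, mouse 12 was the only unirradiated flaxseed mouse, and the 2 differences were -1.49 and 1.62.

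miR-200a, encoded between miR-429 and miR-200b, was the member that varied least. Its levels were 5.03, 4.99 and 5.09 in mice 2, 4 and 5, 4.91, 5.10 and 5.40 in mice 7, 8 and 9, 5.17, 5.26 and 5.35 in mice 11, 12 and 13, and 4.89, 4.81 and 5.08 in mice 15, 17 and 18. Groups next to each other in order of their means (unirradiated flaxseed, irradiated control, unirradiated control, irradiated flaxseed) all overlapped. Groups farther apart did not all overlap. The unirradiated flaxseed mice (5.17 to 5.35) were above every unirradiated control mouse (4.99 to 5.09) and every irradiated flaxseed mouse (4.81 to 5.08). Neither of these differences was called. Its within-group standard deviation of 0.15 was exceeded by 286 of the 296 tested assays, and its difference between diets was 0.01 ± 0.12, with a 95% interval from -0.27 to 0.28.

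miR-200b was measured by an assay in each primer pool. Assay 002251A gave 4.60, 5.10 and 4.67 in mice 2, 4 and 5, 5.01, 4.96 and 4.97 in mice 7, 8 and 9, 5.31, 5.04 and 5.07 in mice 11, 12 and 13, and 4.44, 4.38 and 4.67 in mice 15, 17 and 18. The irradiated flaxseed mice were below both the irradiated control and the unirradiated flaxseed mice without overlap, and overlapped the unirradiated controls. Within the flaxseed diet the irradiated mice were lower by this assay (-0.65 ± 0.18, limma adjusted p = 0.0412). Assay 001800B gave -0.38 ± 0.21 for the same comparison (limma adjusted p = 0.224), with levels of 4.37, 4.40 and 4.19 in mice 2, 4 and 5, 4.40, 4.49 and 4.52 in mice 7, 8 and 9, 4.27, 5.01 and 4.33 in mice 11, 12 and 13, and 4.25, 4.05 and 4.17 in mice 15, 17 and 18. Mouse 12 was the highest by this assay, and the irradiated flaxseed mice were below the other 2 treated groups without overlap. The call by 002251A was lost in 9 of the 12 fits that each left out 1 mouse, those without mouse 7, 8, 9, 11, 12, 13, 15, 17 or 18, with differences from -0.73 to -0.56 (limma adjusted p from 0.0540 to 0.146). Over all 25 alternatives it was lost in 16, among them the authors' normalized values (-0.38, limma adjusted p = 0.153) and scaling to the control RNAs (-0.45, 0.378).

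Within a mouse the scaling cancels between assays, so cluster neighbours can be followed directly if they share a primer pool. An offset between the pools does not cancel, and of the assays compared here only 001800B of miR-200b is in pool B. The level of miR-429 minus that of miR-200a averaged -1.60 ± 0.28 (SD, n = 3) without either treatment, -1.98 ± 0.14 with radiation alone, -4.36 ± 1.52 with flaxseed alone and -1.36 ± 0.72 with both. Mouse 11 had the widest gap, -6.10, and mouse 17 the narrowest, -0.53. The gap between miR-200a and miR-200b varied far less, with a standard deviation over the 12 mice of 0.23 against assay 002251A and 0.22 against 001800B, although all 3 hairpins lie within the same 1846 bases.

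**Figure D2:**
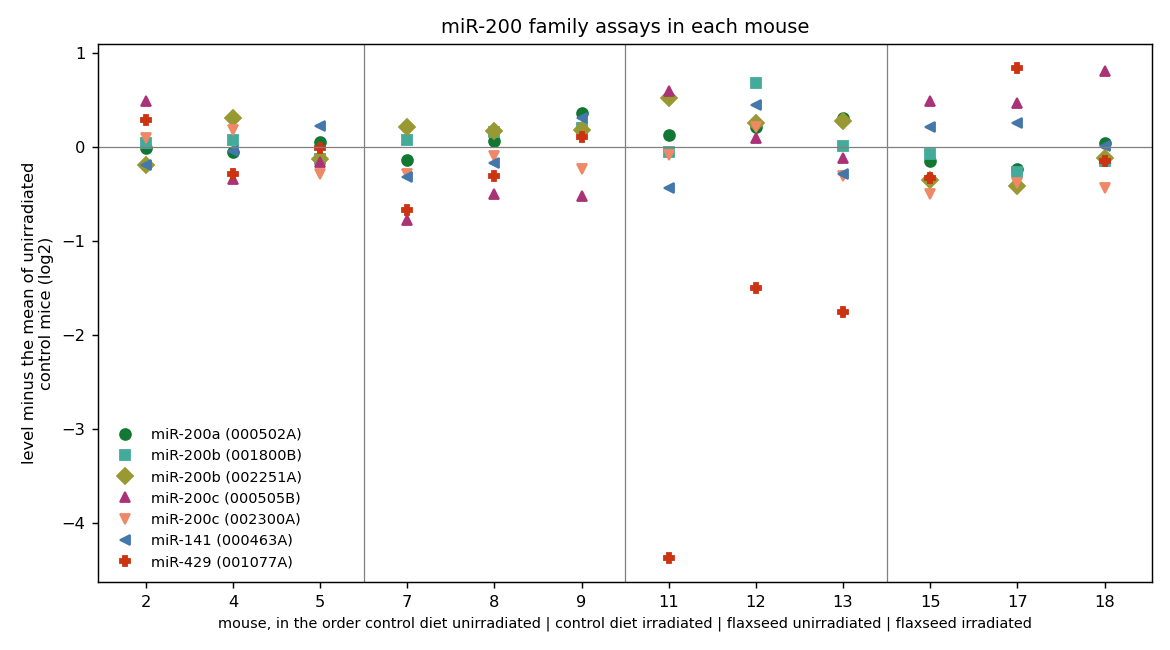
Level of each miR-200 family assay in each mouse minus its mean in unirradiated control mice (log2); mice are in group order, separated by vertical lines, and each symbol is 1 assay. miR-429 lies between -4.37 and -1.49 in mice 11, 12 and 13 while the other 6 assays of those mice stay within 0.69 of the control mean.

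Of the chromosome 6 cluster, miR-200c gave different answers by its 2 assays. Assay 000505B, in pool B, gave 5.96, 5.13 and 5.32 in mice 2, 4 and 5, 4.69, 4.97 and 4.95 in mice 7, 8 and 9, 6.06, 5.56 and 5.36 in mice 11, 12 and 13, and 5.96, 5.94 and 6.28 in mice 15, 17 and 18. The irradiated control mice were below all others, and the 2 flaxseed groups overlapped each other and reached the range of the unirradiated controls. Flaxseed was higher by 0.69 ± 0.18 pooled over radiation (limma adjusted p = 0.0440) and by 1.19 ± 0.26 in irradiated mice (limma adjusted p = 0.0223). On the authors' normalized values these differences were 0.36 and 0.63 and not called (limma adjusted p = 0.123 and 0.101). Scaled to the control RNAs, they were 0.46 and 1.10 and not called (limma adjusted p = 0.174 and 0.0683). Scaled within each primer pool, the pooled call was lost (0.56, limma adjusted p = 0.0597) and the call in irradiated mice was kept (1.22, limma adjusted p = 0.0157).

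Assay 002300A, in pool A, gave 5.28, 5.37 and 4.90 in mice 2, 4 and 5, 4.90, 5.09 and 4.95 in mice 7, 8 and 9, 5.10, 5.40 and 4.88 in mice 11, 12 and 13, and 4.68, 4.80 and 4.75 in mice 15, 17 and 18. Here the irradiated flaxseed mice, the highest by the first assay, were the lowest, below every other mouse. Flaxseed against control diet was -0.15 ± 0.14 pooled (limma adjusted p = 0.565) and -0.24 ± 0.19 in irradiated mice (limma adjusted p = 0.529). The gap between the assays within a mouse was 0.93 ± 0.51 (SD, n = 6) in flaxseed mice, from 0.16 to 1.53, and 0.09 ± 0.37 in control mice, from -0.23 to 0.67. These ranges overlap, and the difference of 0.84 passed an exact two-sided permutation test (p = 0.0130, adjusted over 2 microRNAs p = 0.0260; the smallest p that 6 against 6 allows is 0.00216). Leaving out mouse 4, 7, 8, 11, 15, 17 or 18 put the adjusted p of this exact permutation test at 0.0519, with differences from 0.72 to 0.83. By group, the mean gap was 0.29 ± 0.47 without either treatment and 0.54 ± 0.40 with flaxseed alone. It was -0.11 ± 0.10 with radiation alone and 1.32 ± 0.20 with both, so the wider separation of the diets lay in the irradiated mice. Whether the diet difference in the gap depends on radiation was not tested. That contrast is the same as the split by decimals and cannot be told apart from it. The same gap for miR-200b, 001800B minus 002251A, was -0.47 ± 0.37 in flaxseed and -0.49 ± 0.16 in control mice. Their difference of 0.02 did not pass (exact permutation p = 0.939). Both gaps set a pool B assay against a pool A assay, so an offset between the pools in a mouse does not cancel. The mean Crt of pool B exceeded that of pool A by 1.78 to 2.75 cycles in flaxseed and 2.38 to 2.81 in control mice. The part of this offset in the miR-200c gap was not tested.

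The miR-200c calls were thus made by assay 000505B alone. The pooled call was also lost in 10 of the 12 fits that each left out 1 mouse, all but those without mouse 2 or 13 (0.59 to 0.72, limma adjusted p from 0.0640 to 0.115). The call in irradiated mice was lost when any 1 of the 6 irradiated mice, 7, 8, 9, 15, 17 or 18, was left out (1.08 to 1.25, limma adjusted p from 0.0633 to 0.110). miR-141, the other microRNA of this cluster and the seed partner of miR-200a, was not called in any comparison. Its levels were 1.95, 2.10 and 2.35 in mice 2, 4 and 5, 1.81, 1.96 and 2.44 in mice 7, 8 and 9, 1.70, 2.58 and 1.85 in mice 11, 12 and 13, and 2.35, 2.40 and 2.15 in mice 15, 17 and 18. All 4 groups overlapped, and its difference between diets was 0.07 ± 0.18, with a 95% interval from -0.34 to 0.48.

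miR-375 was the member with the clearest difference between diets. Its level was 1.58, 1.29 and 1.75 in mice 2, 4 and 5, 1.17, 1.68 and 1.16 in mice 7, 8 and 9, 2.53, 2.42 and 2.53 in mice 11, 12 and 13, and 1.60, 1.63 and 1.64 in mice 15, 17 and 18. The 3 unirradiated flaxseed mice were above all 9 others, while the irradiated flaxseed mice lay within the range of both control groups. Flaxseed was higher by 0.62 ± 0.14 pooled (1.54-fold, limma adjusted p = 0.0259), by 0.96 ± 0.19 in unirradiated mice (1.94-fold, limma adjusted p = 0.0120) and by 0.29 ± 0.19 in irradiated mice (limma adjusted p = 0.436). Within the flaxseed diet, irradiated mice were lower (-0.87 ± 0.19, limma adjusted p = 0.0207). The difference between these diet effects was not called (-0.67 ± 0.27, limma adjusted p = 0.144).

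The pooled call of miR-375 was lost when mouse 4, 9, 12, 15 or 18 was left out (0.56 to 0.64, limma adjusted p from 0.0515 to 0.0783), and the radiation call when mouse 15, 17 or 18 was (-0.88 to -0.86, 0.0517 to 0.0692). Leaving out any 1 mouse did not end the call in unirradiated mice, where the difference ranged from 0.83 to 1.06 and the limma adjusted p from 0.0140 to 0.0405. Scaled to the 10 control RNAs in place of the global mean, that difference was 0.58 and not called (limma adjusted p = 0.135); on the authors' normalized values it was 1.27 and called (0.00335). Without mice 11 and 13 together, mouse 12 was the only unirradiated flaxseed mouse. The miR-375 differences were then 0.88 in unirradiated mice, 0.59 pooled and -0.80 for radiation on the flaxseed diet.

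Between diets, miR-135b was called higher with flaxseed only when both radiation states were pooled. Its level was -3.93, -4.51 and -3.59 in mice 2, 4 and 5, -4.14, -4.20 and -3.88 in mice 7, 8 and 9, -3.68, -2.57 and -2.83 in mice 11, 12 and 13, and -3.25, -3.35 and -3.60 in mice 15, 17 and 18. Mice 12 and 13 were the highest, and mouse 11 overlapped the unirradiated controls. The pooled difference was 0.83 ± 0.22 (limma adjusted p = 0.0440), with 0.99 ± 0.31 in unirradiated mice (limma adjusted p = 0.0584) and 0.67 ± 0.31 in irradiated mice (limma adjusted p = 0.237). The pooled call was lost in 9 of the 12 fits that each left out 1 mouse, all but those without mouse 2, 5 or 11, with differences from 0.71 to 0.88 (limma adjusted p from 0.0521 to 0.0976). Scaled to the control RNAs, the pooled difference was 0.60 and not called (limma adjusted p = 0.157). On the authors' normalized values it was 0.76 and called (limma adjusted p = 0.0373).

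**Figure D3:**
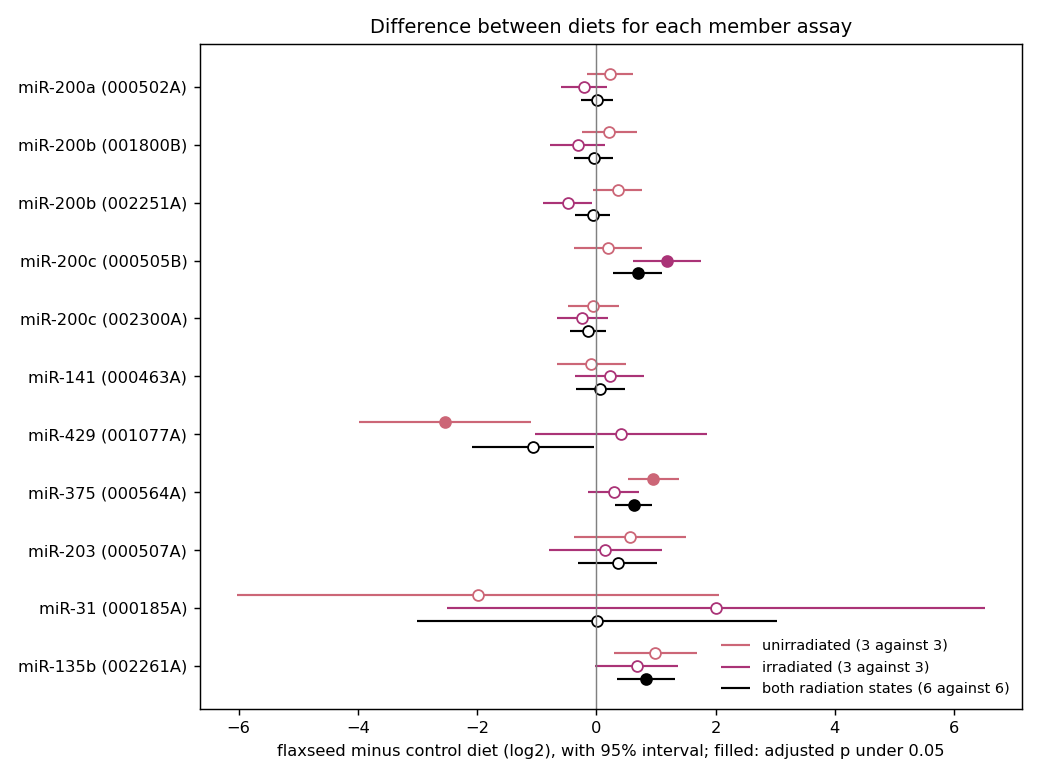
Difference between flaxseed and control diet for each member assay (log2, horizontal axis) with its 95% interval, in unirradiated mice (3 against 3), irradiated mice (3 against 3) and both together (6 against 6); filled points have a limma adjusted p under 0.05. Filled points are miR-375 and miR-429 in unirradiated mice, miR-200c by assay 000505B in irradiated mice, and miR-200c by the same assay, miR-375 and miR-135b in the pooled comparison.

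miR-31 took values far apart inside groups. Its level was 8.10, 2.83 and 7.96 in mice 2, 4 and 5, 3.12 and 4.33 in mice 7 and 8, 6.81, 3.01 and 3.12 in mice 11, 12 and 13, and 7.46, 2.36 and 7.37 in mice 15, 17 and 18. Mouse 9 has no Crt for miR-31 and was left out of its fit, although the authors' normalized table lists 10.5 cycles there against 13.0 to 18.2 in the other 11 mice. That table lists the same value for miR-1960 in mouse 15, the only other reaction that has a normalized value and no Crt. The within-group standard deviation was 2.54, which 2 of the 296 tested assays exceeded. Flaxseed against control diet was therefore measured only to 0.01 ± 1.35, with a 95% interval from -3.02 to 3.04.

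The opposite arm of the same hairpin varied far less. miR-31# (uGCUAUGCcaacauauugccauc, printed because it comes from the same transcript as miR-31) ranged from -2.54 to -1.24 over the 12 mice, with -1.38, -2.54 and -1.28 in mice 2, 4 and 5, where miR-31 differed by 5.28. Both arms were lowest in mouse 4 among those 3 mice. The gap between the arms within a mouse ran from 4.07 in mouse 17 to 9.49 in mouse 2. miR-203 was steadier: 2.66, 1.05 and 3.10 in mice 2, 4 and 5, 2.28, 2.44 and 2.70 in mice 7, 8 and 9, 2.74, 3.11 and 2.65 in mice 11, 12 and 13, and 2.52, 2.70 and 2.64 in mice 15, 17 and 18. Outside mouse 4, the lowest for miR-203, miR-135b and miR-31#, its values ran from 2.28 to 3.11, and no comparison called it (flaxseed pooled 0.36 ± 0.30, limma adjusted p = 0.518).

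**Figure D4:**
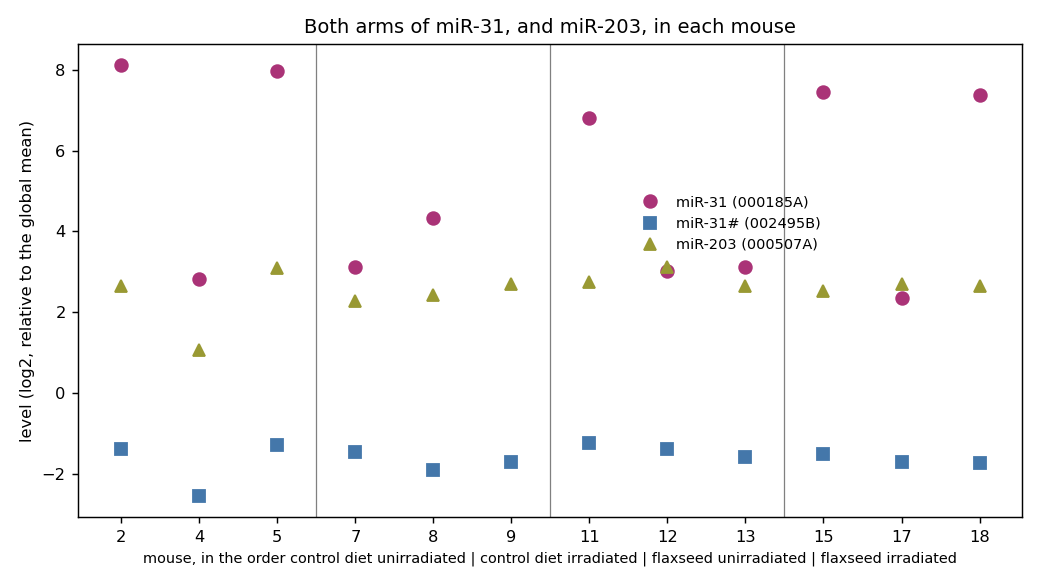
Level of miR-31, of its opposite arm miR-31# and of miR-203 in each mouse (log2, relative to the mean of 260 assays), with mice in group order and groups separated by vertical lines. miR-31 lies between 6.81 and 8.10 in 5 mice and between 2.36 and 4.33 in 6. Both ranges occur in every group except the irradiated controls, where only the lower range was measured and mouse 9 has no point for miR-31. miR-31# stays between -2.54 and -1.24.

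Of the 6 opposite-arm assays of members on the array, miR-200a#, miR-200b# and miR-31# were detected in all 12 mice, and miR-200c#, miR-141# and miR-203# gave no Crt in any. None of the 3 was called between diets: miR-200a# differed by 0.37 ± 0.20 (limma adjusted p = 0.268), miR-200b# by 0.60 ± 0.25 (0.143) and miR-31# by 0.19 ± 0.21 (0.666). The opposite arm of miR-200b thus differed by 0.60 where both assays of miR-200b differed by -0.05 and -0.06; the difference between the arms was not tested, and miR-200b# was at -1.21 or lower in every mouse.

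No member was called for radiation on the control diet. limma called 0 of 11 member assays and 0% of all 296; at an unadjusted p under 0.05 there were 30 of 296, among them 1 member, miR-200c by assay 000505B (-0.60 ± 0.26, limma adjusted p = 0.451). Pooled over diets, limma called 0 of 11 members and again 0% of all, with 50 of 296 at an unadjusted p under 0.05. Those included 2 members, miR-375 (-0.54 ± 0.14, limma adjusted p = 0.121) and miR-429 (1.19 ± 0.46, 0.237). On the flaxseed diet miR-429 was called higher, and lower were miR-375 and assay 002251A of miR-200b, 3 of 11 against 14.5% of all assays, and the median member difference was -0.33 against -0.25 over all. Scaled to the control RNAs, only the miR-429 call was made there (2.86, limma adjusted p = 0.0368).

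Between the mice given both treatments and those given neither, which share the same decimal form, limma called 0 of 11 members, against 0.338% of all assays. At an unadjusted p under 0.05 there were 39 of 296, among them both miR-200c assays in opposite directions, 0.59 ± 0.26 and -0.44 ± 0.19 (limma adjusted p = 0.351 for each). The remaining pair of groups with one decimal form, unirradiated flaxseed against irradiated control mice, differed in both treatments at once. There miR-375 (1.16 ± 0.19, limma adjusted p = 0.00845) and miR-135b (1.05 ± 0.31, 0.05, just under the threshold before rounding) were called higher and miR-429 (-2.25 ± 0.65, 0.0469) lower, 3 of 11 against 13.9% of all. The miR-375 call was made in all 12 fits that each left out 1 mouse (1.07 to 1.33). Without mice 11 and 13 together, which leaves mouse 12 alone in the unirradiated flaxseed group, the miR-375 difference was 1.09. The miR-429 call was lost in 9 and the miR-135b call in 10 of the 12 fits that each left out 1 mouse (limma adjusted p up to 0.146 and 0.149). Without mouse 11 the miR-429 difference was -1.34.

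The interaction, the diet effect in irradiated mice minus that in unirradiated mice, called 0 of 11 members by limma against 8.45% of all assays. At an unadjusted p under 0.05 there were 86 of 296, of which 4 were members: miR-200b by assay 002251A (-0.84 ± 0.26, limma adjusted p = 0.0652), miR-429 (2.95 ± 0.92, 0.0660), miR-200c by assay 000505B (0.99 ± 0.37, 0.102) and miR-375. So none of the differences seen in 1 radiation state only was shown to differ from that in the other. The interaction sets the same 6 mice against the same 6 as the split by decimals, and the 2 cannot be told apart.

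A summed level is the log2 of the sum of the assays' levels after each is taken off the log2 scale. For the 10 member assays detected in every mouse it was 7.45 to 7.68 without either treatment and 7.29 to 7.53 with radiation alone. With flaxseed alone it was 7.52 to 7.76 and with both 7.50 to 7.68, so all 4 ranges overlapped. This sum holds both assays of miR-200b and of miR-200c. It rests mostly on miR-200a, miR-200b and miR-200c, whose levels were the highest, and says little about the other members. Lists for other cell types were counted in the same way between diets pooled over radiation, where 10.5% of all assays were called. Of 4 tested microRNAs on a list of other epithelial ones, miR-192 rose with flaxseed (0.44 ± 0.12, limma adjusted p = 0.0468) and 0 fell, with a median of 0.48; miR-205, miR-182 and miR-215 were not called. Of 4 lymphoid microRNAs, 0 rose and miR-150 and miR-342-3p fell (median -0.96), and both were called in irradiated mice and neither in unirradiated mice. The summed lymphoid level ran from 4.39 to 4.74 in irradiated flaxseed mice against 5.46 to 5.96 in irradiated controls, and from 4.64 to 9.39 in unirradiated flaxseed mice against 5.92 to 7.55 in unirradiated controls, which overlap. Of 4 measured assays of myeloid microRNAs 1 fell, miR-142-3p (median -0.43), and of 4 striated muscle assays 1 of miR-1 rose (median 0.68). The endothelial pair miR-126 and miR-126#, the 7 fibroblast assays and the 1 erythroid assay had no call. The part of cell composition in the member results was not tested.

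Other microRNAs linked to the epithelial-mesenchymal transition did not shift together. Of 13 tested assays, miR-34a, a p53 target that represses Snail, rose with flaxseed (0.99 ± 0.12, limma adjusted p = 0.00192), miR-21, which is induced in fibrosis, fell (-1.05 ± 0.27, 0.0443), and the other 11 were not called; the median was -0.04 against 0.05 over all assays. In unirradiated mice the same 2 were called, miR-34a at 1.28 ± 0.17 and miR-21 at -2.53 ± 0.40, the latter next to miR-429 at -2.54. Of 4 assays of multiciliated-cell microRNAs in unirradiated mice, miR-34b-3p (0.85 ± 0.17) and miR-449b (1.76 ± 0.43) rose and miR-34c fell (-3.14 ± 0.57; limma adjusted p from 0.0104 to 0.0223), where 12.2% of all assays were called. Pooled over radiation, 1 of these 4 ciliated assays was called higher and 0 lower (median -0.18), where 10.5% of all assays were called. In irradiated mice 0 of the 4 were called, where 5.07% of all assays were. miR-124a, the 1 tested microRNA of the neuroendocrine list, was called lower with flaxseed pooled (-2.56), where 10.5% of all assays were called. In unirradiated flaxseed mice its levels ran from -7.76 to -6.38, and the mean Crt of these mice was 20.1 to 21.2. Its own Crt there was thus close to the detection limit of 28. The part of this limit in the size of the difference was not tested.

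The assays whose levels ran most like a member's were found by Pearson's r over the 12 mice among 250 assays of other microRNAs detected in all of them. This describes these mice, which share their groups and scaling, and carries no test. For miR-429 they were miR-195 (r = 0.990) and miR-24 (0.985), still 0.952 and 0.946 without mice 11 and 13, and both were also far lower in unirradiated flaxseed than in unirradiated control mice, by -3.25 ± 0.73 and -4.34 ± 1.12. For miR-375 they were the ciliated-cell microRNA miR-34b-3p (0.919) and the epithelial miR-192 (0.904), still 0.839 and 0.827 without mice 11 and 13. For miR-200c by assay 000505B they were miR-30e-3p (0.875) and miR-421 (0.867), both in pool B like that assay. For miR-200b by 002251A they were miR-672 (0.912) and miR-652 (0.889), both in pool A, and for miR-135b they were miR-335 (0.813) and miR-34a (0.780). For other members the likeness rested more on the 2 mice farthest from the median: without them, r fell from 0.858 to 0.114 for miR-203 with miR-335#, from 0.855 to 0.418 for miR-203 with miR-31#, from 0.851 to 0.527 for miR-200b by 001800B with miR-18a, from 0.849 to 0.380 for the same assay with miR-221, and from 0.812 to 0.539 for miR-200c by 002300A with miR-222. The best likeness of miR-200a was 0.717 with miR-99a#, and that of miR-141 was 0.683 with miR-301. Likeness did not always follow the primer pool. miR-200a is in pool A and miR-99a# in pool B, while 001800B of miR-200b is in pool B and miR-18a and miR-221 are in pool A. No member of the miR-200 family could be listed here for another, since members were left out of the candidates.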

How the data were processed

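Per the labels' protocols, 100 ng of lung RNA went into reverse transcription with Megaplex primers in 2 pools, A and B, followed by 12 cycles of pre-amplification. The authors deposited threshold cycles on the log2 scale (Crt) and a second, normalized table of log2 values; the sources used here do not say how Crt was called. Crt rows carry positions and normalized rows carry names, so names were carried over by matching ranks within every mouse: 322 of 326 assays with a Crt were matched, and 4 were left out. Detection was a Crt under 28. Tested were the 296 assays that 2 or more mice of every group showed, 36 of them with a missing value. limma 3.58.1 (R 4.3.3) fitted 4 group means over 12 mice, with 8 residual and 2.41 prior degrees of freedom. The script was checked on simulated data. PCR reactions carry no read depth. The number of mice limits precision, and differences between reactions were not separated from differences between mice. Named beside the members were opposite arms, called microRNAs of fixed lists and the 2 most alike assays; list names in newer form were matched to the array's older ones (miR-126-3p to miR-126, for example). Members and lists were chosen with earlier results of these data known. Alternatives were other scalings, Crt limits of 26 and 30, other treatments of undetected reactions, the compared groups alone, array weights, leaving out each mouse, and the authors' normalized values.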

Additional observations from a re-analysis of the deposited data

How the results depend on the processing

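The number of called members depended on the scaling and on single mice. Scaled to the control RNAs, it was 0 in place of 3 for flaxseed pooled, 1 in place of 2 in unirradiated and 0 in place of 1 in irradiated mice, 1 in place of 3 for radiation on the flaxseed diet, and 0 in place of 3 for unirradiated flaxseed against irradiated control mice. That scaling moved the median pooled diet difference of all assays from 0.05 to -0.18. With no normalization the counts were 0, 1, 0, 1 and 1 in the same order, with 1 for radiation pooled and 1 for the interaction, and the median was -0.23; miR-200b by 002251A and miR-375 then turned from lower to 0.22 and 0.00017 for radiation on the flaxseed diet. The authors' normalized values gave 0 in irradiated mice, and 2 in place of 3 each for flaxseed pooled, for radiation on the flaxseed diet and for unirradiated flaxseed against irradiated control mice. With the compared groups alone the counts were 0 in unirradiated and 2 in irradiated mice, 0 for radiation on the flaxseed diet and 0 for unirradiated flaxseed against irradiated control mice. Array weights gave 0 and 3 in unirradiated and irradiated mice, and undetected reactions set to 28 gave 1 for the last of these comparisons. Leaving out mice 11 and 13 together leaves mouse 12 as the only unirradiated flaxseed mouse, so no counts are given for it. The diet differences in unirradiated mice were then 0.88 for miR-375, -1.49 for miR-429 and 1.45 for miR-135b. The interaction had 1 call when levels were scaled within primer pools, and 1 when scaled to the median assay.

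Leaving out each mouse in turn gave 0 to 3 called members for flaxseed pooled, 1 to 3 in unirradiated mice, 0 to 1 in irradiated mice, 0 to 3 for radiation on the flaxseed diet, 1 to 3 for unirradiated flaxseed against irradiated control mice and 0 to 1 for the interaction; the cause was not tested. The gap between the miR-200c assays kept its direction in all such fits, from 0.72 to 0.99, but its exact permutation p, adjusted over 2 microRNAs, was 0.0519 in 7 of the 12. Of 87 member differences that were not called, 57 changed sign in at least 1 alternative without being called in either fit. Leaving out the 3 unirradiated flaxseed mice, chosen after seeing the data, changed no count in the comparisons that do not use them. No paired analysis was possible because mouse numbers are not shared between groups.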
